A study of Homo sapiens with 36 samples.

Results

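Expression of 37 genes of glycolysis and the hypoxia response was followed in 4 prostate cancer (PCa) cell lines grown alone or with bone cells. The genes were taken by their symbols: 16 enzymes of glycolysis and 21 further genes that act in glucose and lactate transport, control of glycolytic flux, pH regulation, secretion, mitophagy and the response to low oxygen. All 37 were in the table, out of 27852 genes with a symbol. Of these, 34 reached 100 counts in at least 1 library and were tested, whereas SLC2A3, CA9 and ADM stayed below this minimum in all 36 libraries. In the BPCa lines C4-2 and C4-2B, 14 and 23 of the 34 members were lower with MG63 cells than in mono-culture, beside 4.79% and 3.89% of all genes, and 18 and 24 were lower with RANKL, beside 9.16% and 8.32%. In the LPCa lines more of the called members were higher than lower in these comparisons. The counts depended on which mono-cultures served as the control. Against mono-cultures with RANKL, 1 and 3 members were lower with MG63 cells in C4-2 and C4-2B, beside 5.37% and 3.4% of all genes, and DU145 had 6 members higher and 9 lower, beside 19.4% and 17.1%.

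Glycolysis splits glucose to pyruvate in the cytosol, and lactate dehydrogenase then turns pyruvate into lactate, which leaves the cell through monocarboxylate transporters. When oxygen is low, the prolyl hydroxylases of the EGLN family no longer mark the alpha subunits of hypoxia-inducible factor (HIF) for decay by the VHL ubiquitin ligase. HIF then binds DNA at a short core motif and raises transcription of glucose transporters, most enzymes of glycolysis, PDK1, BNIP3, VEGFA and other genes. Tumour cells often run glycolysis fast with oxygen present, while normal prostate epithelium is known for an unusual citrate metabolism.

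C4-2 and its bone-derived subline C4-2B are labelled osteoblastic PCa (BPCa), and DU145 and 22Rv1 osteolytic PCa (LPCa). All were human cell lines with no oxygen condition given, and for the co-culture system the study's methods name alpha-MEM with ascorbic acid and serum. Each line was harvested on day 5 from 4 cultures. These were mono-culture (3 libraries per line), co-culture with MG63, a human osteosarcoma line used as osteoblast (OB)-like cells (2 libraries), mono-culture with 50 ng/mL RANKL (2 libraries), and co-culture with RAW264.7, a mouse macrophage line that RANKL turns toward osteoclasts (OCs), in the presence of the same RANKL dose (2 libraries). The partner cells grew behind a porous filter, and RNA came from the PCa cells. The comparisons ask what OB-like cells, RANKL and OC precursors did to each line, and how the BPCa lines differed from the LPCa lines. The study's methods describe its bar graphs as drawn from independent experiments, but no label states that the replicates here were independent cultures, so p-values measure the spread between these libraries, which may be technical. BPCa and LPCa were each represented by 2 lines, 1 of them derived from the other in BPCa, and a difference between them is one between these lines.

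Library totals were 23932472 to 36719047 (median 31454200) in the 12 mono-cultures without RANKL and 9593426 to 15418211 (median 12795834) in the 24 others. Depth and culture therefore cannot be told apart in a comparison of either treatment with mono-cultures without RANKL, while the depths of the 24 others were similar. The 2 DU145 libraries with MG63 differed from each other with a chi-square of 126 per degree of freedom over genes, against 3.15 to 7.03 in every other pair of replicates, and the counts of called members in DU145 with MG63 cells are given with and without each of them. A list of 7 markers of the prostate luminal lineage, including KLK2 and KLK3, summed to between 4789 and 8662 CPM (counts scaled to a library total of 1000000) in C4-2 and C4-2B, 757 to 1003 in 22Rv1, and 30.9 to 39.3 in DU145. A list of 14 osteoblast and mesenchymal genes summed to 5.57 to 15.1 CPM in C4-2, C4-2B and DU145 and to 44.2 to 60.6 in 22Rv1. Between 2 and 8 of its genes were at or under 3 counts in every library of a group, with POSTN and THY1 among them in most groups. A list of 12 macrophage and osteoclast genes summed to 57.4 to 91.2 CPM in DU145, 22.5 to 34.4 in C4-2 and C4-2B and 11.9 to 15.6 in 22Rv1. Between 3 and 6 of them were at or under 3 counts in every library of a group, with OCSTAMP, DCSTAMP and TYROBP among them throughout. These are human genes and RAW264.7 is a mouse line, so they do not test for RNA of these partner cells.

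To show what a HIF core motif looks like beside these genes, the promoters of BNIP3, a mitophagy receptor, PFKFB4, a regulator of fructose-2,6-bisphosphate, and PDK1, the kinase that blocks pyruvate dehydrogenase, are given here. Of the members with a promoter window that fell in both BPCa lines with MG63 cells and with RANKL, these had the lowest mean difference. Each line is the 250 bases before a RefSeq start site (GRCh38.p14), read 5′ to 3′ on the strand of the gene. These are chr10:131981924-131982173 on the minus strand for BNIP3, chr3:48556804-48557053 on the minus strand for PFKFB4, and chr2:172555123-172555372 and chr2:172555840-172556089 on the plus strand for the PDK1 starts. Capitals mark ACGTG or GCGTG on either strand, so that CACGT and CACGC are matches to the opposite strand and CACGTG holds overlapping matches on both.
BNIP3: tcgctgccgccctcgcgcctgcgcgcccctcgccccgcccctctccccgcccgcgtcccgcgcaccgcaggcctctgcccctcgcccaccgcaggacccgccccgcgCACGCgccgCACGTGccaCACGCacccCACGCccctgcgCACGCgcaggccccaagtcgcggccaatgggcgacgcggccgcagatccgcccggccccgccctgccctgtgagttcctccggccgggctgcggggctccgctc
PFKFB4: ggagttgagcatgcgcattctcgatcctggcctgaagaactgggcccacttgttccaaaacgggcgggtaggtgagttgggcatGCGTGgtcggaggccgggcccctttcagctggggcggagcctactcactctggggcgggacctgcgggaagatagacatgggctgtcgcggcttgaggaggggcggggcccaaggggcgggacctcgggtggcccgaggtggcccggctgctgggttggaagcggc
PDK1, upstream start: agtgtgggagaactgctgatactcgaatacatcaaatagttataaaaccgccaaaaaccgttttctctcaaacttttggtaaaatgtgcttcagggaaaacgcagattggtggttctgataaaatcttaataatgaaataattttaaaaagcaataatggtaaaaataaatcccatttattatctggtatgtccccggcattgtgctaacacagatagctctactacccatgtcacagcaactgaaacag
PDK1, downstream start: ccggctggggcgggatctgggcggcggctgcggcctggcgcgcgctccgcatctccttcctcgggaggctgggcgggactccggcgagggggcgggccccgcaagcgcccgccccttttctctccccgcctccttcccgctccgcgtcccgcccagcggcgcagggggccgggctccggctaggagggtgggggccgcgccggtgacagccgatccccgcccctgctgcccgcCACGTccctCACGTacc
BNIP3 held 6 matches, PFKFB4 1, the upstream PDK1 window 0 and the downstream one 2. In windows from 250 bases before to 50 after the start, 40 of the 59 windows of 32 members held at least 1 match (67.8%, 95% Wilson interval 55.1 to 78.3%), compared with 17012 of 35116 windows of all genes (48.4%). Windows of the same gene overlap or lie close together and are not independent. A match is a description of the letters and not a bound site. The members SLC2A3, VEGFA, BNIP3L, NDRG1 and HILPDA had no window in the table.

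In mono-culture without RANKL the 16 enzymes together took 1.48% ± 0.041 (SD, n = 3) of all counts in C4-2, 1.83% ± 0.12 in C4-2B, 1.87% ± 0.022 in DU145 and 1.05% ± 0.011 in 22Rv1. Values are scaled by transcript length, so levels can be set side by side between genes. GAPDH, which oxidises glyceraldehyde-3-phosphate, had means of 6102 CPM in C4-2, 7142 in C4-2B, 6348 in DU145 and 5759.8 in 22Rv1, above every other member in each line. Enolase 1 (ENO1) came next in each line, with means of 949 to 3685 CPM. The 21 other members took 0.144% ± 0.013 in C4-2, 0.206% ± 0.029 in C4-2B, 0.189% ± 0.0049 in DU145 and 0.0516% ± 0.0046 in 22Rv1. 22Rv1 was thus the line with the lowest summed level in both sets, and its 3 mono-cultures lay below all mono-cultures of the other lines.

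The lines differed in the RNA shares of isozymes for the same step, although HK1 and ENO1 held most of their pairs in each line. Hexokinases trap glucose in the cell, and HK2, the inducible form bound to mitochondria, made up 25.7% ± 1.6 of HK1 and HK2 together in C4-2 mono-cultures, 30.6% ± 1.3 in C4-2B, 27.9% ± 1.5 in 22Rv1 and 3.91% ± 0.23 in DU145 (SD, n = 3 each). The DU145 range, 3.65 to 4.06%, lay far below the lowest value of the other lines, 24.6%. Of the phosphofructokinases, which commit sugar to glycolysis, the platelet form PFKP held 64.5% ± 0.15 in DU145 and 4.07% ± 0.50 in 22Rv1, where the muscle form PFKM held 59.5% ± 1.4. C4-2 and C4-2B lay between them with 25.6% ± 1.1 and 35.3% ± 2.7 of PFKP. The neuronal enolase ENO2 held 6.92% ± 0.29 of ENO1 and ENO2 in 22Rv1, 0.600% ± 0.029 in DU145, and 0.1004% ± 0.013 and 0.0770% ± 0.010 in C4-2 and C4-2B.

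**Figure D1:**
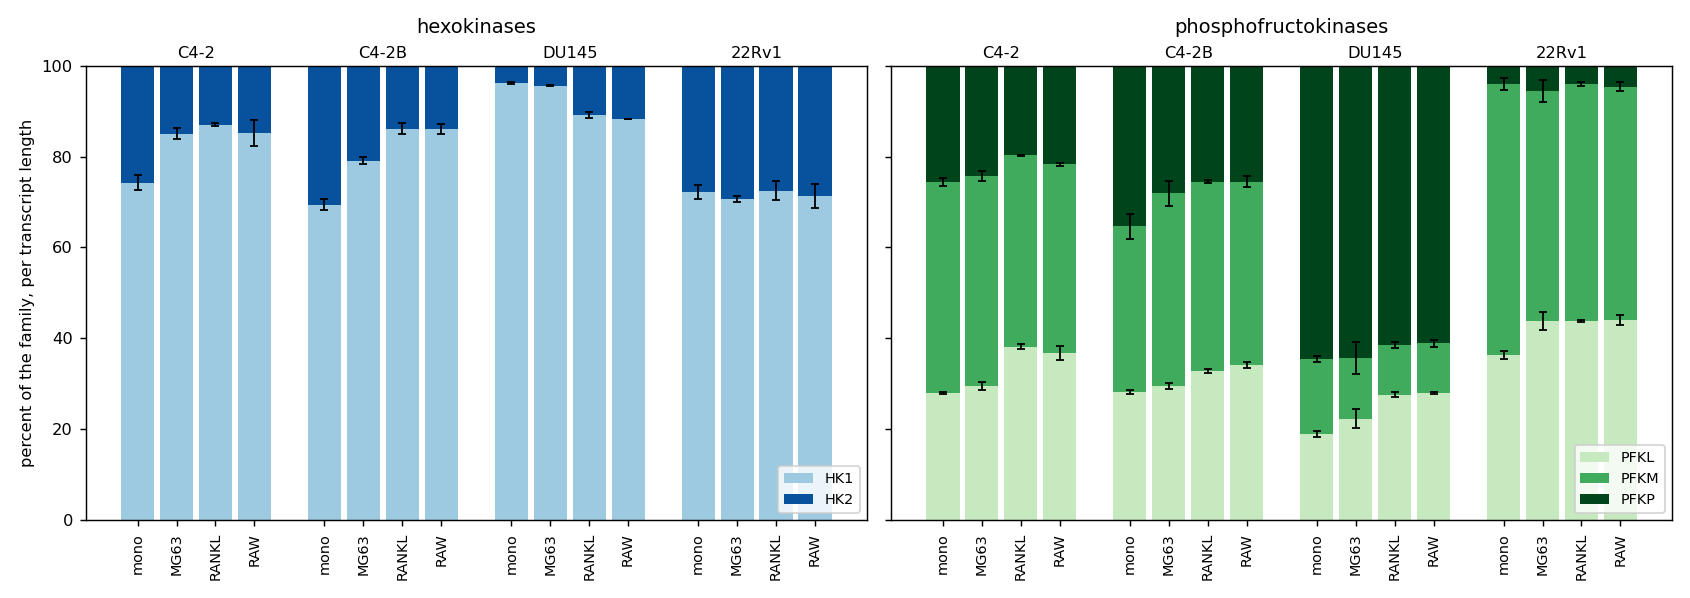
Stacked bars give the percent of hexokinase (HK1, HK2) and phosphofructokinase (PFKL, PFKM, PFKP) counts per transcript length held by each isozyme, as group means, with the SD of an isozyme's own share drawn at its upper edge, for 4 lines and 4 cultures (n = 3 for mono, 2 for the others). The HK2 share of C4-2 and C4-2B is smaller in each of the 3 other cultures than in mono-culture, while that of DU145 is larger with RANKL.

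In C4-2 the HK2 share was 15% ± 1.2 with MG63 cells and 13% ± 0.23 with RANKL (SD, n = 2). In C4-2B it was 20.9% ± 0.71 with MG63 cells and 13.9% ± 1.2 with RANKL. In both lines all 4 of these libraries lay below the 3 mono-cultures. In DU145 the share with RANKL was 10.9% ± 0.66, above all 3 mono-cultures, and in 22Rv1 it was 27.5% ± 2.0, which overlapped with them. With 3 libraries against 2 an exact permutation test cannot reach p = 0.05, and no test was made on the shares.

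Pyruvate kinase PKM makes the last ATP of glycolysis and is spliced to an M1 or an M2 form through a choice between neighbouring exons of equal length. These exons are shown because the table separates their transcripts. They lie on chromosome 15, minus strand (GRCh38), at chr15:72203022-72203188 for M1 and chr15:72202454-72202620 for M2, and capitals mark the 62 of 167 positions at which they differ (62.9% identity).
M1 exon: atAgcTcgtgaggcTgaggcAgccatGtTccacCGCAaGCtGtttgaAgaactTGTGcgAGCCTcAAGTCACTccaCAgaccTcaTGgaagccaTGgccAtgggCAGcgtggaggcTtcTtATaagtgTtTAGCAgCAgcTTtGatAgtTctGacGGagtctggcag
M2 exon: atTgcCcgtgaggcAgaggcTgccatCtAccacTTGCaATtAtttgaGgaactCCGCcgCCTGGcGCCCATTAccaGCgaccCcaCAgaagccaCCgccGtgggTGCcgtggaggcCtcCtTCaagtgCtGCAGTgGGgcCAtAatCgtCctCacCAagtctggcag
Transcripts with either exon held 83.7 to 95.6% of PKM in each library. The M1 exon made up 3.16% ± 0.076 of them in C4-2 mono-cultures, 3.26% ± 0.16 in C4-2B, 2.02% ± 0.27 in DU145 and 2.02% ± 0.74 in 22Rv1 (SD, n = 3 each). Over all 16 groups the mean M1 share was between 1.40 and 4.07%, so the M2 form was the main one in each line and culture.

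Against the LPCa lines, BPCa mono-cultures had 24 of the 34 members higher and 5 lower at a Benjamini-Hochberg adjusted p under 0.05 in edgeR's quasi-likelihood test, here named a call. Of all 13437 genes tested, 39.4% were called higher and 40.4% lower. The median log2 difference was 0.57 over the members and -0.01 over all genes. Of the enzymes, 12 of 16 were higher and ENO2 was lower, and all 4 stress genes (ANKRD37, DDIT4, HILPDA, NDRG1) and both mitophagy receptors (BNIP3, BNIP3L) were higher. The 5 lower members were ENO2, SLC2A1, PFKFB3, VEGFA and EGLN1. The LPCa value is a mean of DU145 and 22Rv1, which were often far apart. Of the 24 higher members, 9 were above both LPCa lines in every BPCa mono-culture, namely GPI, ALDOC, PGK1, PDK1, PFKFB4, CA12, BNIP3, ANKRD37 and DDIT4. Beside these 9 of 34 members stand 2559 of all 13437 genes (19%), out of 5294 called higher. The BPCa mono-cultures were all below those of DU145 for 7 of the 24, namely the enzymes PFKP, ALDOA, PGAM1, ENO1 and PKM, with SLC16A3 and BNIP3L, and below those of 22Rv1 for PFKL and PFKM. They overlapped with DU145 for LDHA, EGLN3, P4HA1 and NDRG1 and with 22Rv1 for HK2 and HILPDA. Of the 5 lower members, ENO2 was below both LPCa lines throughout. Beside it as 1 of 34 members stand 2869 of all 13437 genes (21.4%), out of 5427 called lower. SLC2A1 and PFKFB3 were below DU145 but above 22Rv1 in every BPCa mono-culture. VEGFA and EGLN1 were below DU145 and overlapped with 22Rv1.

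The difference of largest size was that of ENO2, at 1.69, 2.31 and 2.05 CPM in C4-2 and 1.54, 2.36 and 2.18 in C4-2B, against 20.8, 22.6 and 23.4 in DU145 and 68.7, 74.0 and 69.0 in 22Rv1. BPCa and LPCa libraries did not overlap, and the log2 difference was -4.24 (SE 0.09, adjusted p = 1.54e-16). ANKRD37, an ankyrin repeat protein induced by HIF, had 13.8, 18.8 and 13.3 CPM in C4-2 and 18, 23.9 and 22.8 in C4-2B, and 2.33 to 3.27 in the 6 LPCa mono-cultures, with a log2 difference of 2.71 (SE 0.14, adjusted p = 1.53e-11). NDRG1, a stress-induced gene that responds to HIF, was high in DU145 as well. Its 3 mono-cultures had 178, 191 and 201 CPM, beside 179, 212 and 214 in C4-2, 213, 277 and 267 in C4-2B and 19.7, 27.8 and 23.1 in 22Rv1. The BPCa minus LPCa value of 1.82 (SE 0.09, adjusted p = 1.98e-11) therefore averages an LPCa line that overlapped C4-2 with one that did not.

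For CA12, DU145 stood apart from the other lines. This membrane carbonic anhydrase was at 18.2, 19.7 and 20.9 CPM in C4-2, 26.2, 27.5 and 26.2 in C4-2B and 14.7, 14.1 and 12.6 in 22Rv1, but at 1.54, 1.45 and 1.01 in DU145. Glucose-6-phosphate isomerase (GPI) was at 885, 930 and 919 CPM in C4-2 and 1070, 1187 and 1184 in C4-2B, and both LPCa lines were near each other with 335, 345 and 351 in DU145 and 345, 335 and 322 in 22Rv1. Aldolase C (ALDOC) was at 31.5, 39.1 and 38.4 CPM in C4-2, 54.5, 69.7 and 73.8 in C4-2B, 7.19, 6.65 and 5.63 in DU145 and 21.8, 29.4 and 26.9 in 22Rv1. GPI and ALDOC separated both BPCa lines from both LPCa lines in every library, with log2 differences of 1.66 (SE 0.05, adjusted p = 4.3e-14) and 1.97 (SE 0.11, adjusted p = 4.39e-11). DU145 and 22Rv1 differed from each other in 30 members, 22 higher and 8 lower in DU145 (39.1% and 40.5% of all genes). SLC16A3, the MCT4 exporter of lactate, was at 460, 464 and 467 CPM in DU145 and 10.8, 12.5 and 11.4 in 22Rv1, a log2 difference of 5.34 (SE 0.11, adjusted p = 1.94e-16).

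Within BPCa, the bone-derived C4-2B had 18 members higher and 1 lower than its parent C4-2, where 7.41% and 6.24% of all genes were called. PFKFB4 was at 24.4, 37.8 and 36.1 CPM in C4-2B and 13.4, 16.6 and 14.5 in C4-2, with a log2 difference of 1.19 (SE 0.18, adjusted p = 0.000312). BNIP3 (0.99), SLC16A3 (0.93), ALDOC (0.91), VEGFA (0.71) and PDK1 (0.67) were also higher in C4-2B. EGLN3, an oxygen sensor that is itself a HIF target, was lower, with 6.46, 7.56 and 8.93 CPM against 10.5, 12.6 and 12. The number of members called lower was 1 here and between 0 and 4 in the alternatives tried.

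Part of the line differences did not hold in the mono-cultures with RANKL. There BPCa had 11 members higher and 13 lower than LPCa (39.2% and 40% of 11525 genes), and the median over the members was -0.05. Of the 29 members called without RANKL, 15 were called in the same direction with it, and HK2, PFKFB4, PFKL and PKM were called in the opposite direction. HK2 went from 1.55 (SE 0.06) to -0.23 (SE 0.08, adjusted p = 0.0178), and PFKFB4 from 1.44 (SE 0.14) to -0.53 (SE 0.13, adjusted p = 0.002). ENO2 had -4.24 (SE 0.09) and -4.87 (SE 0.097), and NDRG1 1.82 and 1.76. For C4-2B against C4-2, 3 of 19 calls were made again in the same direction, and 5 members were higher and 2 lower (2.68% and 3.79% of all genes). For DU145 against 22Rv1, 28 of 30 were, and 24 members were higher and 7 lower (38.7% and 40.3%). The mono-cultures without RANKL were the deeper ones, and RANKL and depth cannot be told apart here.

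**Figure D2:**
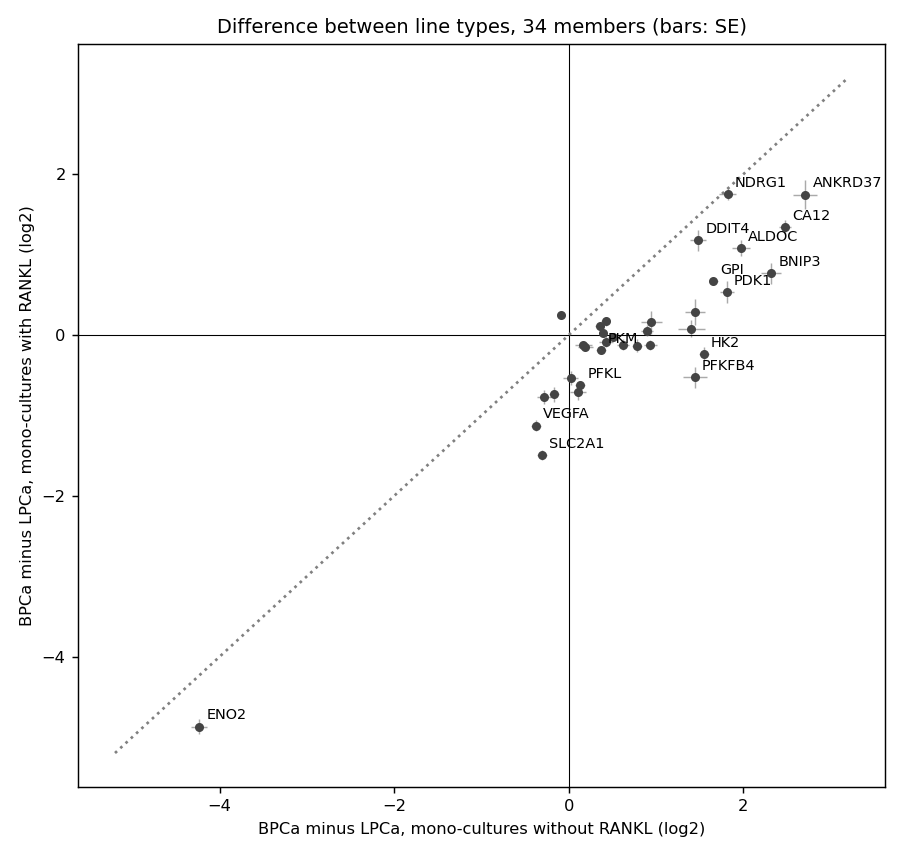
Each point is 1 of the 34 tested members, with its BPCa minus LPCa log2 difference in mono-cultures without RANKL on the x axis and in mono-cultures with RANKL on the y axis (bars: SE, dotted line: equal values). Most points lie below the dotted line, ENO2 is far lower in BPCa on both axes, and HK2 and PFKFB4 have opposite signs on the axes.

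With MG63 cells, 14 members fell and 2 rose in C4-2, and 23 fell and 1 rose in C4-2B, relative to mono-cultures without RANKL. Of all 13437 genes, 4.79% fell and 5.3% rose in C4-2, and 3.89% fell and 3.52% rose in C4-2B. In DU145, 14 members rose and 1 fell (15.2% and 15.3% of all genes), and in 22Rv1, 9 rose and 2 fell (11.2% and 9.18%). The median log2 difference over the members was -0.32 in C4-2, -0.65 in C4-2B, 0.15 in DU145 and 0.13 in 22Rv1, beside medians of -0.06 to 0.00 over all genes. The size of the difference varied between the 4 lines for 25 members (F test, 14.5% of all genes). Averaged over the lines, 15 members fell and 5 rose (19.3% and 18.1% of all genes). These differences use edgeR's TMM scaling, whereas CPM are per library total. Scaling by the library total alone shifted the average by -0.088 and single lines by -0.06 to -0.11 on the log2 scale. Then 18 fell and 0 rose in the average, 5 fell and 10 rose in DU145, and 2 fell and 5 rose in 22Rv1.

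By role, the 3 regulators of flux fell in both BPCa lines. PFKFB3 and PFKFB4 make or remove fructose-2,6-bisphosphate, the activator of phosphofructokinase, and PDK1 keeps pyruvate out of mitochondria. PFKFB4 went from 24.4, 37.8 and 36.1 CPM to 9.76 and 16.1 in C4-2B, a fall by 1.28 on the log2 scale (SE 0.22, adjusted p = 0.00248), and from 13.4, 16.6 and 14.5 to 6.83 and 7.35 in C4-2. PDK1 went from 37.4, 47.6 and 45.7 to 25.3 and 23.4 CPM in C4-2B and from 26.3, 31.7 and 26.7 to 13.8 and 16.3 in C4-2. For both genes the groups did not overlap in either line. In DU145, PFKFB3 rose from 71.7, 72.4 and 72.9 to 120 and 129 CPM, by 0.86 (SE 0.09, adjusted p = 2.68e-05), while it fell by 0.37 in C4-2 and by 0.65 in C4-2B (F test between lines, adjusted p = 2.69e-05).

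Of the enzymes, 3 fell and 1 rose in C4-2, 9 fell and 0 rose in C4-2B, 9 rose and 0 fell in DU145, and 8 rose and 1 fell in 22Rv1. Beside these stand 4.79% lower and 5.3% higher of all genes in C4-2, 3.89% lower in C4-2B, 15.2% higher in DU145, and 11.2% higher and 9.18% lower in 22Rv1. Of the 9 in DU145, ENO2, PFKP, PKM and TPI1 lost their call without the second DU145 library with MG63 cells, and HK2 without either. LDHA, which forms lactate, went from 1499, 1924 and 1739 to 793 and 841 CPM in C4-2B and from 1110, 1309 and 1210 to 721 and 741 in C4-2, with no overlap in either line. The differences were -1.02 (SE 0.11, adjusted p = 4.58e-05) and -0.62 (SE 0.11, adjusted p = 0.00139). In DU145 and 22Rv1 its values were 0.04 and 0.05, neither of them called. GPI, PFKL, PFKP, ALDOA, ENO2 and PKM rose in both LPCa lines, by 0.25 (PKM in DU145) to 0.58 (PFKL in DU145), but GPI, PFKL and PKM were lower in DU145 when mono-cultures with RANKL were the control. The glucose transporter SLC2A1 (GLUT1) fell in C4-2 (-0.46) and C4-2B (-0.59). SLC16A3 fell in C4-2B (-0.66) and DU145 (-0.29) and rose in 22Rv1, from 10.8, 12.5 and 11.4 to 19.3 and 22.9 CPM (0.98, SE 0.11, adjusted p = 2.51e-05).

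Of the stress genes, NDRG1 fell in both BPCa lines. It went from 179, 212 and 214 to 80.1 and 79.0 CPM in C4-2 and from 213, 277 and 267 to 62.5 and 77.8 in C4-2B. The groups were clearly apart, and the falls were 1.23 (SE 0.15, adjusted p = 6.52e-05) and 1.79 (SE 0.15, adjusted p = 4.78e-06) on the log2 scale, or 2.35-fold and 3.45-fold. In DU145 it had 164 and 135 CPM after 178, 191 and 201 (-0.27, not called) and in 22Rv1 24.0 and 23.3 after 19.7, 27.8 and 23.1 (0.12, not called). BNIP3 went from 310, 389 and 366 to 166 and 168 CPM in C4-2 and from 540, 806 and 708 to 217 and 254 in C4-2B, and in DU145 it rose from 198, 187 and 196 to 253 and 296. Its differences were -0.98 (SE 0.17), -1.48 (SE 0.18) and 0.57 (SE 0.17), and they varied between the lines with an adjusted p of 0.000119. BNIP3 has many processed pseudogenes, 39 in the table, which held a median of 16.8% of the summed counts of BNIP3 and its pseudogenes, and adding them changed no call of a named member.

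The angiogenic factor VEGFA fell in C4-2, C4-2B and 22Rv1, by 0.78 (SE 0.10), 0.72 (SE 0.10) and 0.45 (SE 0.10), although in C4-2B it was higher than in mono-cultures with RANKL. In C4-2 it went from 80.6, 94.6 and 87.4 to 45.7 and 48.7 CPM, in C4-2B from 123, 149 and 144 to 76.7 and 84.8, and in 22Rv1 from 79.5, 87.8 and 84.6 to 56.1 and 57.6. In DU145 it was at 252, 261 and 284 CPM alone and at 249 and 296 with MG63 cells, which overlap. KDM3A, a histone demethylase induced by HIF, fell by 0.82 (SE 0.15) in C4-2 and 0.83 (SE 0.15) in C4-2B, and had -0.30 and -0.25 in DU145 and 22Rv1, without a call. BNIP3L fell in C4-2 (-0.59) and C4-2B (-0.75), from 99.9, 115 and 110 to 64.7 and 68.4 CPM and from 106, 132 and 120 to 63.6 and 71.9. CA12 went the other way in BPCa, from 18.2, 19.7 and 20.9 to 27.3 and 25.7 CPM in C4-2 (0.55, SE 0.10) and from 26.2, 27.5 and 26.2 to 36.8 and 35.4 in C4-2B (0.50, SE 0.10).

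Among the oxygen-dependent hydroxylases, P4HA1, which hydroxylates collagen, fell in both BPCa lines. It went from 64.4, 78.2 and 71.3 to 44 and 43.9 CPM in C4-2 (-0.59, SE 0.10) and from 90.8, 112 and 104 to 54.1 and 58.6 in C4-2B (-0.80, SE 0.10), and it rose slightly in DU145 (0.26, SE 0.09, adjusted p = 0.0464). Its relative P4HA2 fell in C4-2B (-0.83) and rose in DU145 (0.55), where the libraries with MG63 cells were at 53.7 and 81.3 CPM. The oxygen sensor EGLN3 fell in C4-2B from 6.46, 7.56 and 8.93 to 3.27 and 3.33 CPM (-1.14, SE 0.20). EGLN1, the main sensor in most cells, was not called in any line, with -0.25 to 0.28. HILPDA, a lipid droplet protein induced by hypoxia, was called in DU145 (0.95, SE 0.21, adjusted p = 0.00371), but its libraries with MG63 cells had 14.6 and 32.1 CPM beside 14.3, 11.2 and 11.8 alone. ANKRD37 fell in C4-2B (-0.76, SE 0.20, adjusted p = 0.0312) and had -0.61 in C4-2, without a call.

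In all, 13 of 34 members fell with MG63 cells in both C4-2 and C4-2B, compared with 275 of 13437 genes (2.05%). The summed luminal markers fell at the same time, from 7369 to 7629 CPM in mono-culture down to 5975 to 6139 in C4-2 and from 8238 to 8662 down to 6129 to 6429.6 in C4-2B, and their part in the result was not tested. The 14 osteoblast and mesenchymal genes, which MG63 RNA would carry, were at 9.64 to 15.1 CPM in C4-2 and C4-2B with MG63 cells and at 10.7 to 12.3 in their mono-cultures. In 22Rv1 they were at 58.5 to 60.6 CPM with MG63 cells and at 44.9 to 48.3 in mono-culture, and their part in the 22Rv1 results was not tested. Single libraries moved these counts. Without the first DU145 library with MG63 cells, 13 members rose and 5 fell in DU145, and without the second, 7 rose and 0 fell. In either case 18 fell in C4-2 and 29 in C4-2B, and 12 rose and 3 fell in 22Rv1. Of the 15 members called in DU145, 13 kept their call without the first of these libraries, with HK2 and P4HA1 as the exceptions, and 5 kept it without the second, namely PFKFB3, PFKL, GPI, ALDOA and ENO1. BNIP3 (0.46), P4HA2 (0.23), HILPDA (0.30), PKM (0.063), TPI1 (0.062) and SLC16A3 (-0.21) were among those that lost it there. Without DU145 mono replicate 2, 9 rose in DU145, and none fell without any 1 of its mono-cultures. Without C4-2 MG63 replicate 1, 8 members rather than 14 fell in C4-2, and without C4-2B MG63 replicate 1, 15 rather than 23 fell in C4-2B. In 22Rv1, 6 rose and 0 fell without its MG63 replicate 1, and 4 rose and 1 fell without its MG63 replicate 2.

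**Figure D3:**
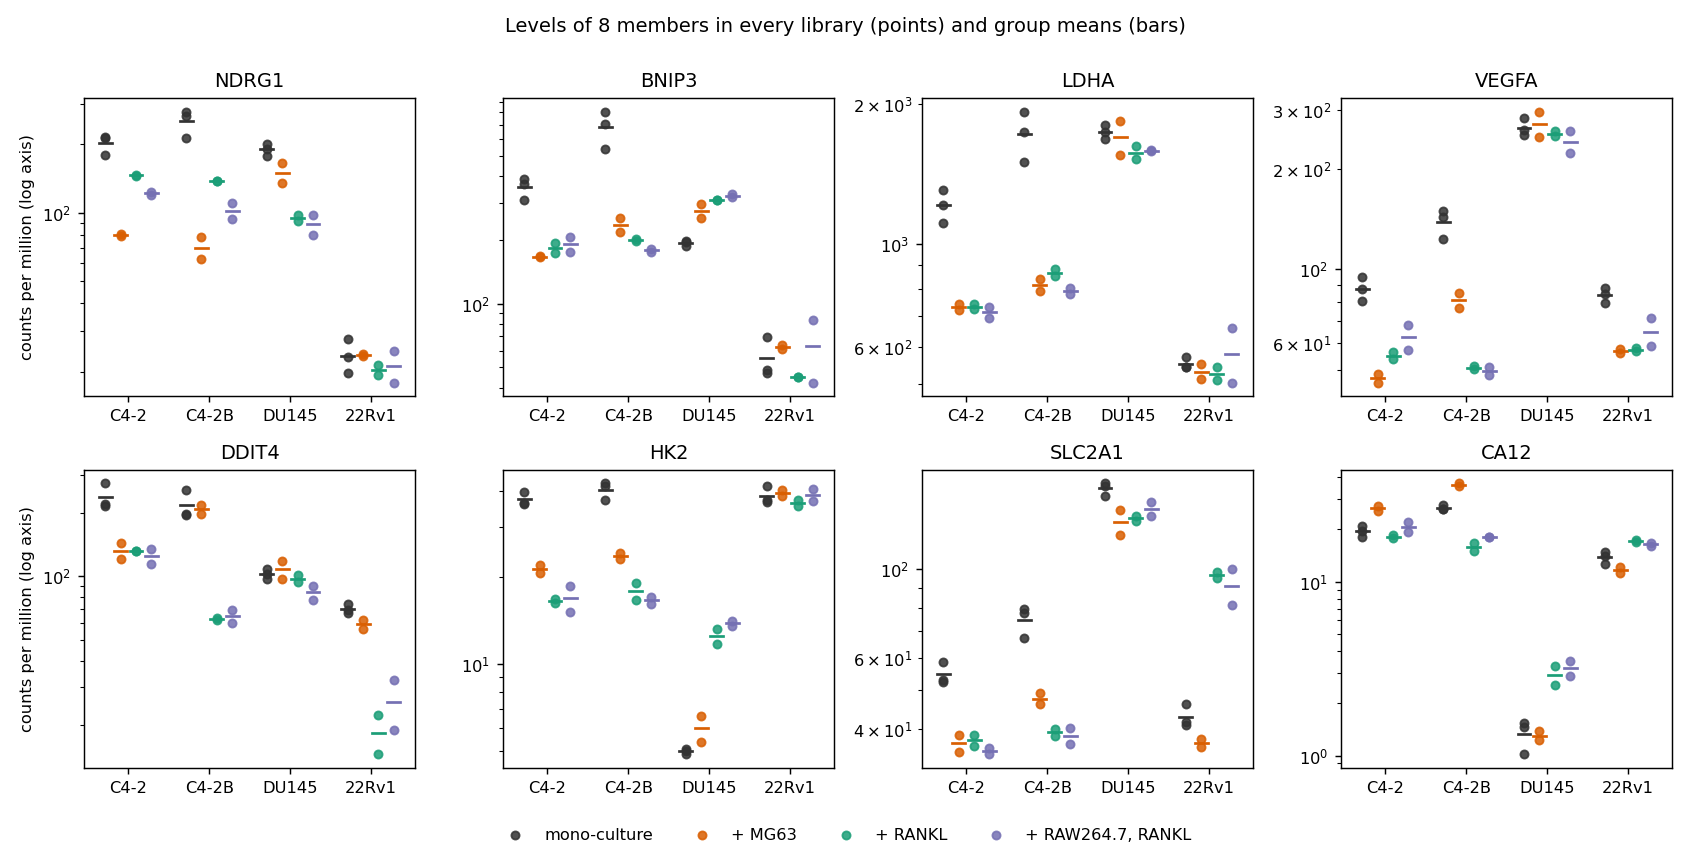
Levels of 8 members in each of the 36 libraries (points) and group means (horizontal bars), in CPM on log axes, for 4 lines and 4 cultures. NDRG1, BNIP3, LDHA, VEGFA and HK2 lie lower in every treated group of C4-2 and C4-2B than in mono-culture, and DDIT4 in C4-2B is at 196 and 218 CPM with MG63 cells but at 63.4 and 62.1 with RANKL.

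Most of this was not seen when the mono-cultures with RANKL were the control of the same MG63 co-cultures. Then 7 members were higher and 1 lower in C4-2 (4.89% and 5.37% of 13454 genes), 5 higher and 3 lower in C4-2B (4.23% and 3.4%), 6 higher and 9 lower in DU145 (19.4% and 17.1%), and 4 higher and 2 lower in 22Rv1 (8.02% and 7.26%). Without the first DU145 library with MG63 cells 7 were higher and 8 lower in DU145, and without the second 5 and 8. In each case 11 of the 15 calls were kept, and among those lost were PFKL without the first (-0.31 to -0.096) and PGK1 without the second (-0.87 to -0.46). In the average 6 were higher and 4 lower (12.6% and 11.2%), and 18 differed between the lines (36.9%). Without C4-2 MG63 replicate 2 or either C4-2 library with RANKL, 3 rather than 7 members were higher in C4-2. Without either DU145 library with MG63 cells, 3 were lower in C4-2 and 5 in C4-2B, and without the second of them 9 were lower in the average. In 22Rv1, 1 was higher without MG63 replicate 2 or RANKL replicate 2, and 2 without RANKL replicate 1. The median over the members was 0.01 in C4-2 and 0.01 in C4-2B. NDRG1 stayed lower in both BPCa lines, at 80.1 and 79.0 CPM beside 146.2 and 144.8 in C4-2 and at 62.5 and 77.8 beside 138 and 138 in C4-2B. Its differences were -0.85 (SE 0.15, adjusted p = 0.000279) and -1.01 (SE 0.15, adjusted p = 5.94e-05), whereas it was higher in DU145 (0.67, SE 0.15, adjusted p = 0.00105). These values differed between the lines (F test, adjusted p = 1.2e-06). NDRG1 in both BPCa lines, with HK1 and PGAM1 in C4-2B, made up all members called lower in BPCa by this comparison.

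CA12 was higher with MG63 cells against either control in both BPCa lines, with 0.57 (SE 0.11, adjusted p = 0.000615) in C4-2 and 1.15 (SE 0.11, adjusted p = 4.88e-08) in C4-2B against RANKL. It was lower in DU145 (-1.10) and 22Rv1 (-0.47). HK2 was higher in C4-2 (0.40) and C4-2B (0.37) and lower in DU145 (-1.04, SE 0.13, adjusted p = 9.85e-07). Besides HK2, calls turned in direction with this control for VEGFA and SLC16A3 in C4-2B and for GPI, PKM, PFKL and SLC16A3 in DU145, and for PFKM in the average. VEGFA in C4-2B was at 76.7 and 84.8 CPM with MG63 cells, below all mono-cultures without RANKL and above the 50.2 and 51.3 with RANKL (0.64, SE 0.12, adjusted p = 0.000755), and SLC16A3 had 0.65. GPI in DU145 was at 414 and 532 CPM with MG63 cells, between the mono-cultures without RANKL and the 705 and 704 with it (-0.56, SE 0.085, adjusted p = 2.06e-05). PKM had -0.44, PFKL -0.31 and SLC16A3 0.27 there, and PFKM 0.20 in the average after -0.13. LDHA was at 721 and 741 CPM with MG63 cells and at 742 and 725 with RANKL in C4-2, and at 793 and 841 beside 883 and 852 in C4-2B, neither of them called. Mono-cultures with RANKL contain an added factor that the MG63 co-cultures lacked, and mono-cultures without it were sequenced more deeply. Neither control isolates the effect of MG63 cells.

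**Figure D4:**
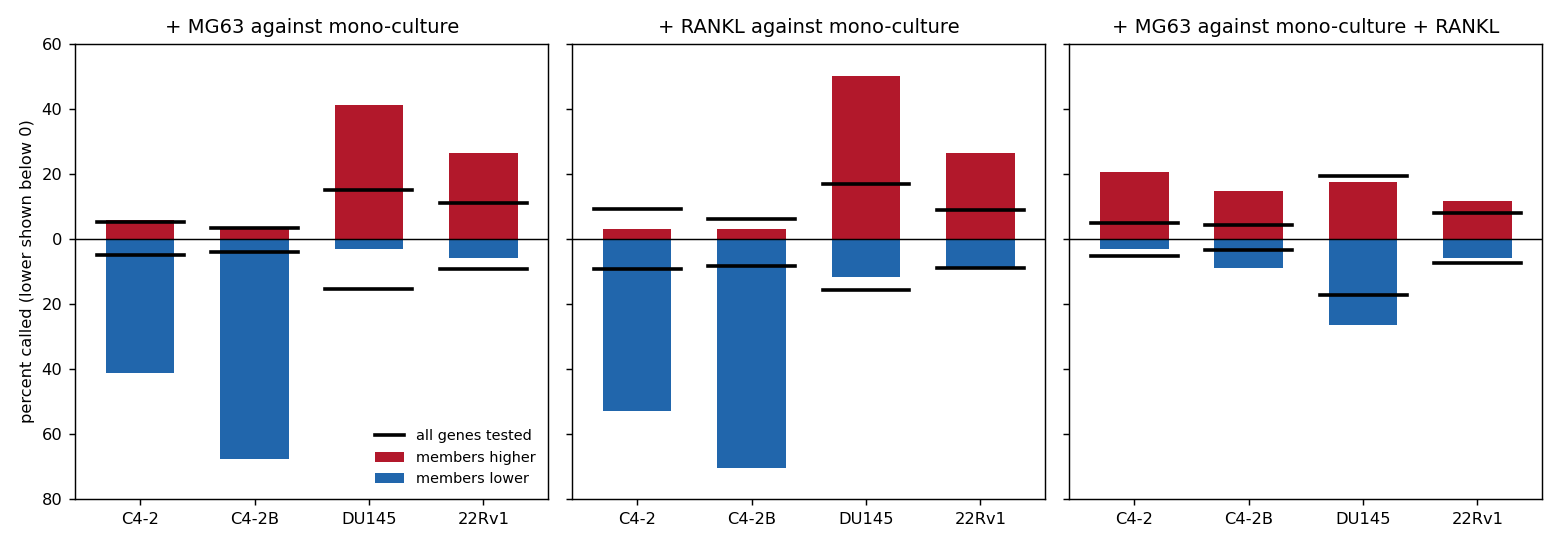
Bars give the percent of the 34 tested members called higher (above 0) and lower (below 0) in each line for 3 comparisons, and black lines the percent of all genes tested. In C4-2 and C4-2B the lower bars pass the black lines by far against mono-cultures without RANKL, and against mono-cultures with RANKL they do not in C4-2 and do so by less in C4-2B.

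RANKL in mono-culture is compared with the same deep mono-cultures, so its results share controls with those of MG63 cells and both are set side by side only. With RANKL, 18 members fell and 1 rose in C4-2 (9.16% and 9.16% of 13454 genes), 24 fell and 1 rose in C4-2B (8.32% and 6.07%), 17 rose and 4 fell in DU145 (16.9% and 15.6%), and 9 rose and 3 fell in 22Rv1 (8.9% and 8.85%). In 22Rv1, 3 rose and 2 fell without RANKL replicate 1, 4 rose and 2 fell without RANKL replicate 2, and 5 rose and 2 fell without mono replicate 3. In DU145, 2 rather than 4 fell without either library with RANKL or without mono replicate 2 or 3. The 4-line average had 19 lower and 6 higher (20.1% and 17.2%), and 32 of 34 members differed between lines (32.6% of all genes). In both BPCa lines 17 members fell, compared with 402 of 13454 genes (2.99%). Of the 34, 11 fell in both BPCa lines both with MG63 cells and with RANKL, namely HK2, LDHA, SLC2A1, PDK1, PFKFB3, PFKFB4, VEGFA, BNIP3, KDM3A, P4HA1 and NDRG1. Over all genes 99 of 13437 did so (0.737%), and both comparisons use the same mono-cultures as control. The summed luminal markers were lower with RANKL too, at 6077 to 6199 CPM in C4-2 after 7369 to 7629 and at 5227 to 5305 in C4-2B after 8238 to 8662, and their part in the result was not tested.

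Several members responded to RANKL and to MG63 cells to different degrees. DDIT4, an inhibitor of mTORC1 induced by stress, fell with RANKL in C4-2 (-0.76, SE 0.17), C4-2B (-1.71, SE 0.18) and 22Rv1 (-1.91, SE 0.20). In C4-2B it went from 198, 257 and 196 to 63.4 and 62.1 CPM and in 22Rv1 from 67.0, 73.8 and 69.5 to 22.2 and 14.4, with no overlap, while with MG63 cells these lines had 196 and 218, and 56.4 and 62.3. DU145 was at 96.9, 109 and 103 CPM alone and at 101 and 93.6 with RANKL, which overlap. Set against each other, MG63 co-cultures were above RANKL mono-cultures by 1.69 (SE 0.19, adjusted p = 1.1e-06) in C4-2B and by 1.78 (SE 0.21, adjusted p = 1.64e-06) in 22Rv1. In C4-2, however, DDIT4 was called lower with MG63 cells too, and these co-cultures were not called different from RANKL mono-cultures.

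In C4-2B, SLC16A3 went from 156, 193 and 181 to 66.5 and 67.8 CPM with RANKL (-1.32, SE 0.10, adjusted p = 1.37e-09) and to 102 and 113 with MG63 cells. VEGFA went to 50.2 and 51.3 CPM with RANKL (-1.37, SE 0.11, adjusted p = 2.35e-09), BNIP3 to 197 and 202 (-1.70, SE 0.20, adjusted p = 1.41e-06), and PFKFB4 to 6.84 and 9.76 (-1.91, SE 0.22, adjusted p = 1.15e-06). All of these lay below every C4-2B mono-culture without RANKL. NDRG1 fell less with RANKL than with MG63 cells in both BPCa lines, as the comparison between these cultures showed, and it fell in DU145 from 178, 191 and 201 to 97.9 and 92.0 CPM (-0.90, SE 0.13, adjusted p = 1.29e-05). PDK1 in C4-2B was at 20.5 and 13.6 CPM (-1.27, SE 0.14).

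In DU145, 11 of 16 enzymes rose with RANKL and HK1 and PFKM fell, beside 16.9% and 15.6% of all genes, and ENO1, LDHA and ALDOC were not called. HK2 went from 5.00, 5.10 and 4.87 to 11.7 and 13.3 CPM (1.42, SE 0.10, adjusted p = 1.7e-10), while it fell from 35.9, 39.6 and 36.3 to 16.2 and 16.9 in C4-2 and from 37.1, 42.4 and 41.5 to 19.2 and 16.7 in C4-2B (-1.09, SE 0.09, in each). DU145 thus gained HK2 where the BPCa lines lost it, and the difference between lines had an adjusted p of 1.32e-12. GPI rose in DU145 from 335, 345 and 351 to 705 and 704 CPM (1.14, SE 0.08), and PFKL (0.94), PKM (0.73) and ALDOA (0.62) rose too. PGK1 was among those that rose (1.14), but 81.6% of its counts were in a processed transcript of 702 bases and 15.6% in protein-coding ones. CA12 rose from 1.54, 1.45 and 1.01 to 2.54 and 3.30 CPM (1.21, SE 0.17) and PDK1 from 13.1, 14.1 and 14.1 to 20.8 and 20.7 (0.70, SE 0.14). The summed epithelial markers EPCAM, KRT8, KRT18, CDH1 and KRT19 rose in DU145 from 1214 to 1237 CPM up to 2243 to 2244 with RANKL. With MG63 cells the DU145 libraries were at 988 and 1713 CPM, on either side of the mono-cultures without RANKL and below those with it. The part of these markers in the DU145 results was not tested.

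In 22Rv1 the glucose transporter SLC2A1 went from 41, 46.2 and 41.7 to 98.1 and 95 CPM with RANKL (1.196, SE 0.08, adjusted p = 3.31e-10). It fell in C4-2 (-0.46) and C4-2B (-0.85) and had -0.15 without a call in DU145 (F test between lines, adjusted p = 1.96e-11). With MG63 cells 22Rv1 stayed at 36.1 and 37.9 CPM, 1.31 (SE 0.10, adjusted p = 8.45e-10) below the RANKL mono-cultures on the log2 scale. ALDOC, ALDOA, GPI, PFKL and PGAM1 also rose in 22Rv1 with RANKL, by 0.22 to 0.53. The summed epithelial markers of 22Rv1 were at 896 to 899 CPM in mono-culture, 1158 to 1225 with MG63 cells and 1271 to 1331 with RANKL, and its luminal markers at 861 to 936, 1001 to 1003 and 757 to 759.8 CPM. Their part in the 22Rv1 results was not tested.

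**Figure D5:**
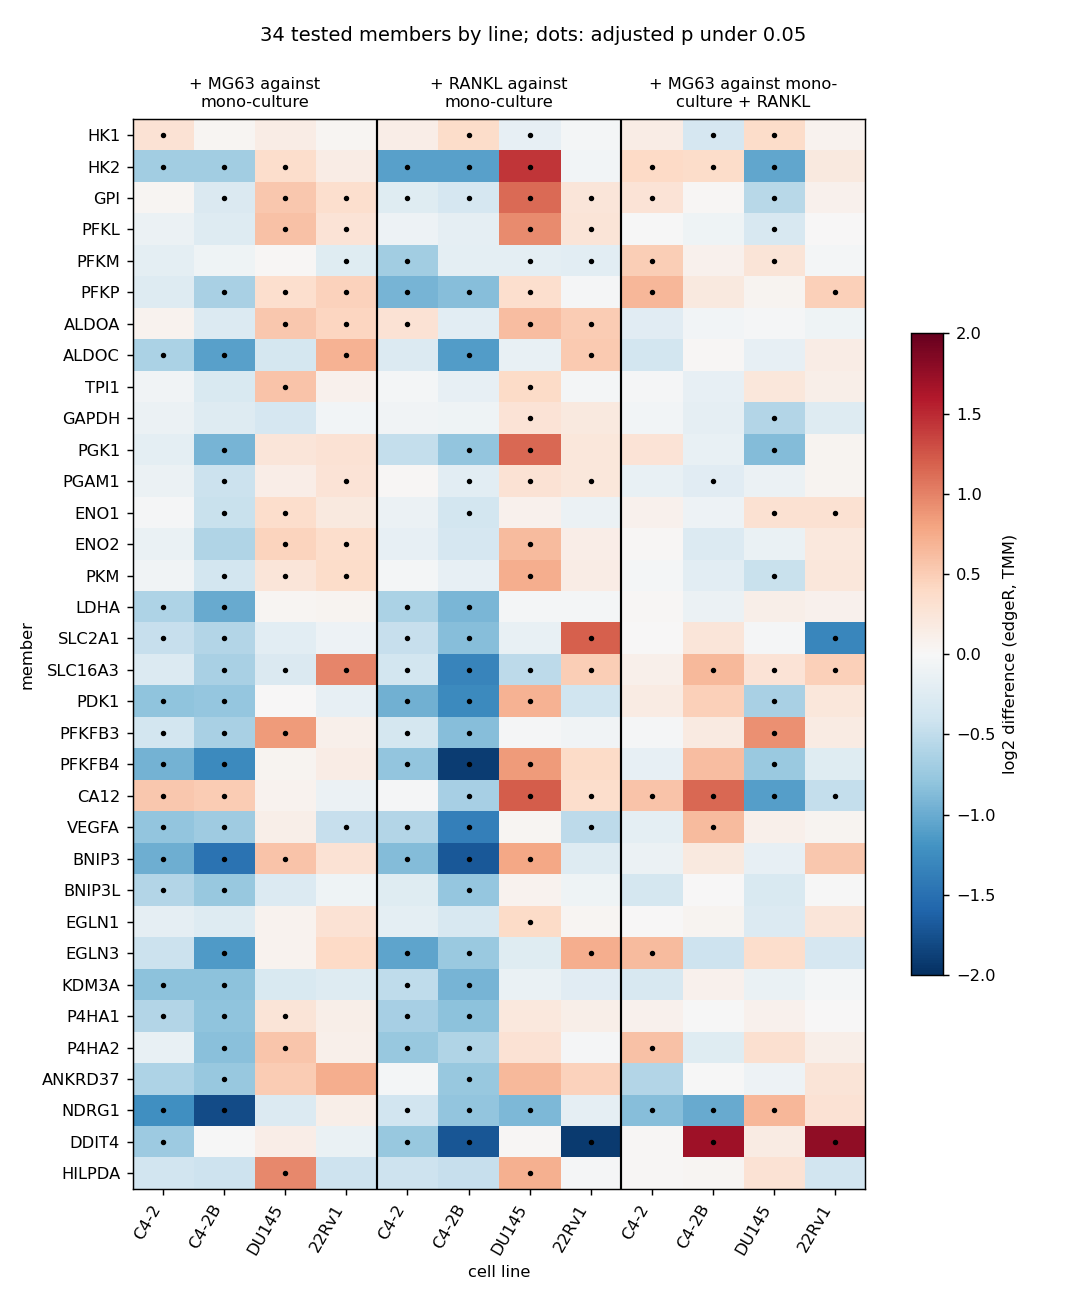
Log2 differences of the 34 tested members (rows) in 4 lines for 3 comparisons (columns), from edgeR with TMM scaling. Blue is lower and red is higher, and dots mark adjusted p under 0.05. The C4-2 and C4-2B columns are mostly blue in the first and second block, and in the third block, with RANKL mono-cultures as control, each of them has 8 dots.

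RAW264.7 cells made no difference that passed the test. Against mono-cultures with RANKL, 0 of 34 members were called in the average or in a single line by edgeR (0.0434% of 11525 genes were higher and 0.0781% lower in the average, 0% and 0.00868% in C4-2, 0.0694% and 0.0694% in C4-2B, 0.00868% and 0.0174% in DU145, and 0.00868% and 0% in 22Rv1), and 0 differed between lines (0.0347%). DESeq2 called 1 member lower in C4-2B and 0 elsewhere. At an unadjusted p under 0.05, 4 members differed in the average (7.55% of all genes), namely ENO2 (0.28), PFKP (0.14), NDRG1 (-0.18) and P4HA2 (-0.18), with 0.365 as the smallest adjusted p. In C4-2B, NDRG1 was at 111 and 93.2 CPM with RAW264.7 cells and at 138 and 138 without, a difference of -0.42 (SE 0.10, edgeR adjusted p = 0.273). Each group had 2 libraries.

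The untested members were low in every line. SLC2A3 had 0.304 to 2.74 CPM, and 14.9% of it was in protein-coding transcripts. CA9, a classical HIF target and membrane carbonic anhydrase, had at most 19.5 counts in a library and was at 0 in all RANKL mono-cultures. A value of 0 does not exclude low expression. ADM, the vasodilator adrenomedullin, had at most 4.72 CPM, in DU145 with MG63 cells.

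Further genes of the pathway were counted from 3 lists of 53 genes in all. HIF1A itself did not fall with either treatment in the average against mono-cultures without RANKL (0.02, not called, with MG63 cells and 0.29, SE 0.05, adjusted p = 5.37e-05, with RANKL). Against mono-cultures with RANKL it was lower with MG63 cells (-0.27, SE 0.055, adjusted p = 0.00101). Its means were 62.4, 60.7 and 59.9 CPM in C4-2 alone, with MG63 cells and with RANKL, 74.4, 72.6 and 82.0 in C4-2B, 306, 298 and 338 in DU145, and 68.1, 61.7 and 107 in 22Rv1. EPAS1, which encodes HIF-2 alpha, was at 144.9 CPM in DU145 mono-cultures and at 56.1 with RANKL, and between 0.684 and 2.60 in the group means of the other lines alone, with MG63 cells or with RANKL. Of 8 tested genes of HIF subunits and regulators, VHL was lower with MG63 cells (19.3% of all genes), and CITED2 and VHL were lower and HIF1A higher with RANKL (20.1% and 17.2%). Against RANKL mono-cultures, CITED2 was higher and HIF1A lower with MG63 cells (12.6% and 11.2%). In BPCa 7 were lower than in LPCa (40.4% of all genes), with -1.02 for HIF1A and -4.00 for EPAS1. For both genes DU145 stood apart. HIF1A in 22Rv1 mono-cultures lay between C4-2 and C4-2B, and EPAS1 was at or under 2.60 CPM in 22Rv1 as in BPCa. These measure RNA, and HIF alpha subunits are controlled mainly as protein.

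Of 27 tested genes of the wider hypoxia response, 10 fell and 2 rose with MG63 cells in the average, beside 19.3% and 18.1% of all genes. In C4-2, 6 fell and 1 rose (4.79% and 5.3% of all genes), in C4-2B 13 and 0 (3.89% and 3.52%), in DU145 4 and 3 (15.3% and 15.2%), and in 22Rv1 6 and 6 (9.18% and 11.2%). With RANKL 12 fell and 3 rose in the average (20.1% and 17.2%), 9 and 2 in C4-2 (9.16% and 9.16%), 17 and 1 in C4-2B (8.32% and 6.07%), 4 and 6 in DU145 (15.6% and 16.9%), and 5 and 3 in 22Rv1 (8.85% and 8.9%). STC2, a secreted glycoprotein induced by stress, fell by 1.02 (SE 0.05, adjusted p = 1.55e-13) with RANKL. Its mean was lower in each line, with values of 90.3 and 50.5 CPM in C4-2, 83.3 and 40.9 in C4-2B, 97.7 and 40.7 in DU145 and 15.7 and 6.57 in 22Rv1. Against RANKL mono-cultures, MG63 co-cultures had ERO1A, LOXL2, MXI1 and STC2 higher and FAM162A, GBE1 and LOX lower in the average (12.6% and 11.2%). PDK4, a further pyruvate dehydrogenase kinase, rose by 1.14 (SE 0.31, adjusted p = 0.00845) with MG63 cells and by 1.06 (SE 0.33, adjusted p = 0.0143) with RANKL. It had 31.3 ± 2.8, 84.5 ± 2.6 and 48.9 ± 3.7 CPM (SD) in 22Rv1 alone, with MG63 cells and with RANKL, and under 3 CPM in the other lines, where the fitted average rests on few counts. MIF was the other gene of this list that rose with MG63 cells (0.69), and MIF (0.59) and FAM162A (0.18) rose with RANKL. Of 11 other genes of glycolysis and lactate handling, 2 rose and 3 fell with MG63 cells in the average (18.1% and 19.3% of all genes), and 0 rose and 3 fell with RANKL (17.2% and 20.1%). Those with MG63 cells were PGAM2 (0.97) and TIGAR (0.17), which rose, and ADPGK (-0.25), PFKFB2 (-0.49) and PGM1 (-0.18), and with RANKL LDHB (-0.24), PFKFB2 (-0.23) and SLC16A1 (-0.34) fell. PGAM2, the muscle form of phosphoglycerate mutase, was higher with MG63 cells than with RANKL by 2.18 (SE 0.73, adjusted p = 0.0333). It was at 273 ± 16 and 138 ± 9.1 CPM in 22Rv1 and at or under 1.2 in these cultures of the other lines, where it was close to 0.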

How the data were processed

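RNA was measured in 36 libraries of 16 groups (4 PCa lines in 4 cultures). Per the submitters' processing notes, the authors used FastQC and kallisto and named the build hg19, and per the study's methods kallisto's estimates were read with tximport as scaled TPM counts. The transcript set is not given in the sources used here. The deposited values are thus estimated counts per transcript, already scaled by transcript length. Multiplied by the GENCODE 29 transcript length and 1 constant per library, 68.1 to 72.2% of single-transcript symbols came within 0.05 of a whole number, against 8.1 to 10.6% as deposited. Levels can therefore be set side by side between genes, and counting error cannot be read from them directly. The table held 159837 transcripts in 161149 lines, and the 2491 repeated lines were identical and used once. Transcripts were summed to 27852 symbols, and 6878 transcripts without one (0.526 to 0.764% of counts) were left out of the tests and edgeR's library sizes. The library totals given here, and CPM, include them.

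Sums were rounded and tested with edgeR 4.0.16 (quasi-likelihood, TMM, R 4.3.3) on genes with at least 100 counts in 1 or more libraries, with 1 mean per line and culture. The 20 libraries without RANKL (13437 genes) gave the MG63 and line comparisons, the 16 with RANKL (11525 genes) the RAW264.7 comparison and line differences with RANKL, and all 36 (13454 genes) the RANKL comparison and MG63 against RANKL mono-cultures. Calls are Benjamini-Hochberg adjusted p under 0.05 over all genes of a fit. CPM are per library total, and those and the shares carry SDs over 2 or 3 libraries. Scripts were tested on simulated data. Fits with DESeq2 1.42.0, other scaling and filters, each library left out, a replicate block and RANKL mono-cultures as control were also made.

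The members and the other lists were chosen with earlier results of these data known. Any member could be named. Sample values were given for up to 8 members with the largest average change past the threshold in each culture comparison and for up to 8 with the largest BPCa minus LPCa difference, and for isozymes. Pathway genes were counted, and named where called with a fold above 2 in an average over the lines; others could be named where a count was 5 or less. HIF1A, EPAS1 and some values in single lines were added after their values were seen. Promoters and motifs are from RefSeq (GRCh38.p14), and PKM exons from GENCODE 29 (GRCh38). Replicate numbers did not pair the libraries (the correlation of same-numbered deviations between mono-cultures and MG63 co-cultures was -0.0758 to -0.0126). Intervals of motif shares cover counting error only. 1 gene of the luminal marker list is not reported here and was left out of its sums.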

Additional observations from a re-analysis of the deposited data

Results flagged for a closer look

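The effect of culture differed between the 4 lines for 25 of the 34 tested members with MG63 cells and for 32 with RANKL. Of all genes, 14.5% and 32.6% did so. The call is edgeR's F test of the difference over the lines at an adjusted p under 0.05. With MG63 cells, the span from the highest to the lowest line was 2.06 on the log2 scale for BNIP3, 1.90 for NDRG1, 1.42 for PFKFB4, 1.07 for LDHA, 0.89 for VEGFA and 0.80 for PDK1. With RANKL it was 2.48 for BNIP3, 1.97 for PDK1, 1.94 for DDIT4, 1.81 for SLC16A3, 1.41 for VEGFA, 0.87 for LDHA, 0.81 for KDM3A and 0.72 for NDRG1. Both comparisons use the same deeper mono-cultures as control.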

How the results depend on the processing

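Main counts are those of the report. Against mono-cultures with RANKL, members lower with MG63 cells went from 15 to 4 in the average and from 40 to 15 line-by-line calls. There the sign changed for VEGFA (0.15), PDK1 (0.051), BNIP3 (0.12) and LDHA (0.026) in the average, PDK1 (0.16) and LDHA (0.018) in C4-2, and KDM3A (0.092), PFKFB4 (0.61), VEGFA (0.64), PDK1 (0.48), BNIP3L (0.0024) and BNIP3 (0.20) in C4-2B. Of these values VEGFA in C4-2B was called and the others were not; the cause was not tested. By library total, members higher with MG63 cells went from 5 to 0 in the average and from 26 to 17 line by line, and without a filter on low counts from 5 to 3. With a call at a fold above 2 and an unadjusted p under 0.05, MG63 cells gave 0 higher and 0 lower in the average (0.841% and 0.566% of all genes). Line by line they gave 0 and 7, with 6 of the 7 in C4-2B (0.99% of all genes) and 1 in C4-2 (0.789%). RANKL gave 0 and 1 in the average (0.736% and 0.714%). Line by line it gave 5 and 11, with 4 of the 5 in DU145 (2.99%) and 8 of the 11 in C4-2B (1.84%). Between lines the counts were 16 and 19, with no share over all genes taken. This call asks for a larger change. By the same call BPCa had 12 members higher and 1 lower than LPCa (13.1% and 16.9% of all genes). C4-2B had 1 higher and 0 lower than C4-2 (1.38% and 1.65%). By adjusted p, as in the report, these were 11 and 13, and 5 and 2 in mono-cultures with RANKL. Members lower in C4-2B than C4-2 were 1 in the main fit, 3 with DESeq2, 4 with all 36 libraries fitted together, 4 by library total, and 2 with the length scaling undone. DESeq2 called 1 member lower with RAW264.7 cells, and gave adjusted p-values for 31 of 34 members in C4-2B, 24 in 22Rv1 and 23 in the average. Counted as reads rather than per length, HK2 shares were 41.2% (C4-2B) and 6.18% (DU145), PFKP 62.6% (DU145), ENO2 8.42% (22Rv1), and PKM M1 3.48% (C4-2) and 3.59% (C4-2B).

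With 1 library left out, where a lone library was assumed to vary like the other groups, MG63 cells gave 4 to 6 higher and 12 to 18 lower in the average, 20 to 28 and 32 to 55 line by line, and 23 to 33 between lines. RANKL gave 5 to 7 and 18 to 19, 22 to 28 and 44 to 50, and 29 to 32. RAW264.7 cells gave 0 in the average, 0 to 1 higher and 0 lower line by line, and 0 to 1 between lines, with 1 call when 22Rv1 RAW264.7 replicate 1 was left out. BPCa had 23 to 26 higher and 4 to 6 lower than LPCa, C4-2B 16 to 25 and 0 to 4 against C4-2, and DU145 22 to 23 and 8 against 22Rv1. HK2 shares were 29.8 to 31.0% in C4-2B and 3.84 to 4.04% in DU145, PFKP 64.4 to 64.6% in DU145 and ENO2 6.76 to 7.03% in 22Rv1.

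With the replicate block, MG63 cells gave 4 higher and 14 lower in the average and RANKL 6 and 18, 2 members were lower in C4-2B than C4-2, and NDRG1 with RANKL in C4-2 (-0.35) lost its call. The numbers are only shared names. Leaving out single libraries from MG63 against RANKL mono-cultures in single lines was chosen after seeing the data. Dividing by length was not run, since the values already are per length, and undoing that scaling was chosen after seeing the data. Depth cannot be told apart from culture in comparisons with mono-cultures without RANKL.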
